A study of Homo sapiens with 12 samples.

Results

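The position of ARID1A inside H3K4me3 promoter domains was examined in RT112 cells. RT112 is a human cell line derived from a transitional cell carcinoma of the bladder, and the study treated it as ARID1A wild type. CUT&RUN, in which an antibody tethers a nuclease that releases the DNA around its target, was performed on these cells in 4 antibody groups of 3 replicates each. These were ARID1A with an Abcam antibody, ARID1A with a CST antibody, H3K4me3, and an IgG control that was not analysed here. Only this line was profiled, and cells lacking ARID1A were not profiled in these lists, so the specificity of either ARID1A antibody was not checked by loss of its target. The authors deposited 1 list of called regions per antibody, merged over the 3 replicates and giving positions only.

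ARID1A regions were taken as shared when an Abcam region and a CST region had at least 1 bp in common, counting the Abcam region, on chromosomes 1 to 22 and X. Of 28609 shared ARID1A regions, 6399 overlapped an H3K4me3 region, and of 9765 H3K4me3 regions, 6046 overlapped a shared ARID1A region, which gave 6404 overlapping pairs. Most positions below refer to single-gene domains, the H3K4me3 regions that held the canonical transcription start site (TSS) of exactly 1 protein-coding gene and no TSS of another. There were 7226 single-gene domains, and 4378 of them (60.6%) overlapped shared ARID1A, in 4622 pairs. Distances were measured along the direction of transcription, so that a negative value lies upstream. Since the lists are merged, no replicate error can be given and the depth behind each region is unknown. Intervals are 95% intervals over regions, exact binomial for shares and order-statistic for medians. They treat regions as independent and cover counting error only, and the second ARID1A antibody was the only repeat measurement.

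ARID1A is the DNA-binding subunit that defines one form of the SWI/SNF complex, an ATP-driven machine that slides and evicts nucleosomes. H3K4me3 is a histone mark deposited by the SET1 and MLL methyltransferases on the nucleosomes that flank the nucleosome-depleted start sites of active genes, and at most promoters it extends further into the gene body than upstream. A region of H3K4me3 therefore spans both the depleted start site and the nucleosomes on each side of it, and a remodeler may sit anywhere within that span.

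The DNA at the centre of the Abcam ARID1A region is shown for 6 promoters. In each, the Abcam midpoint lay upstream of every annotated TSS of the gene. They were taken first from the PI3K and PRC2 genes, the pathways at the centre of the study. CST midpoints lay outside these windows, downstream of the TSS at PIK3R1 (190 bp) and PIK3R2 (127 bp). They lay upstream at PIK3CA (16 bp), EZH2 (192 bp), JARID2 (466 bp) and ARID2 (1580 bp). Each sequence was read from the hg38 reference, centred on the midpoint of the Abcam region and written in the direction of transcription. The windows are chr3:179147678-179147778 (plus strand) for PIK3CA, chr5:68215636-68215736 (plus strand) for PIK3R1, chr19:18152611-18152711 (plus strand) for PIK3R2, chr7:148884844-148884944 (minus strand) for EZH2, chr6:15245397-15245497 (plus strand) for JARID2 and chr12:45728376-45728476 (plus strand) for ARID2. Capitals mark matches to the 10 words searched in these promoters, which are described with the sequence results.
PIK3CA: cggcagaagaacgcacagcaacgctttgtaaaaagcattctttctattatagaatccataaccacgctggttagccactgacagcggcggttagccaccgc
PIK3R1: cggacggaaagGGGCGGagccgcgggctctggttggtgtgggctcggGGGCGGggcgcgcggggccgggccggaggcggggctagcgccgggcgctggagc
PIK3R2: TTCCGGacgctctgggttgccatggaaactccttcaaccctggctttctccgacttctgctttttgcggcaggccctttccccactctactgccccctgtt
EZH2: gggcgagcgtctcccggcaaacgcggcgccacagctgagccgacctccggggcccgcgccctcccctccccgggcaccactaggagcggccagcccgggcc
JARID2: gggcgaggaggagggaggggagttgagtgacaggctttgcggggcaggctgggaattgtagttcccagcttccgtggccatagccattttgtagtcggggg
ARID2: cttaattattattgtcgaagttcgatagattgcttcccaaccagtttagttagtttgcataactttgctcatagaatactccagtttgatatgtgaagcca
The windows differed widely in composition. The PIK3R1 window, 70 bp upstream of the TSS, had 83.2% G and C, 16 CpG dinucleotides and a pair of GC boxes. The ARID2 window, 1280 bp upstream, had 34.7% G and C and 2 CpG dinucleotides. At PIK3R2 the window began with a match to the ETS word, and no word was found in the other 4.

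In single-gene domains ARID1A was centred close to the TSS, while H3K4me3 was centred further into the gene. The median ARID1A midpoint lay 51 bp downstream of the TSS (95% interval 35 to 67, n = 4622 pairs) and the median H3K4me3 midpoint lay 416 bp downstream (401 to 428). The ARID1A value was 21 bp (6 to 34) with CST regions and 16 bp (3 to 30) with the bases common to both antibodies, and it lay upstream, at -57 bp (-71 to -47), when the TSS nearest the H3K4me3 midpoint was used. The ARID1A midpoint was upstream of the H3K4me3 midpoint in 3558 of 4622 pairs, or 77% (75.7 to 78.2, against 50%), with a median difference of -312 bp (-329 to -295). It was also the nearer of the pair to the TSS in 60.9% of pairs (59.4 to 62.3). With the TSS nearest the H3K4me3 midpoint, a choice that shortens the H3K4me3 distance by construction, this share was 46.9% (45.4 to 48.3). Within 250 bp of the TSS lay 47.5% of ARID1A midpoints (46.1 to 49.0) and 28.3% of H3K4me3 midpoints (27.0 to 29.6). The ARID1A region covered the TSS in 89.6% of pairs, lay wholly downstream in 7.16% and wholly upstream in 3.20%.

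**Figure D1:**
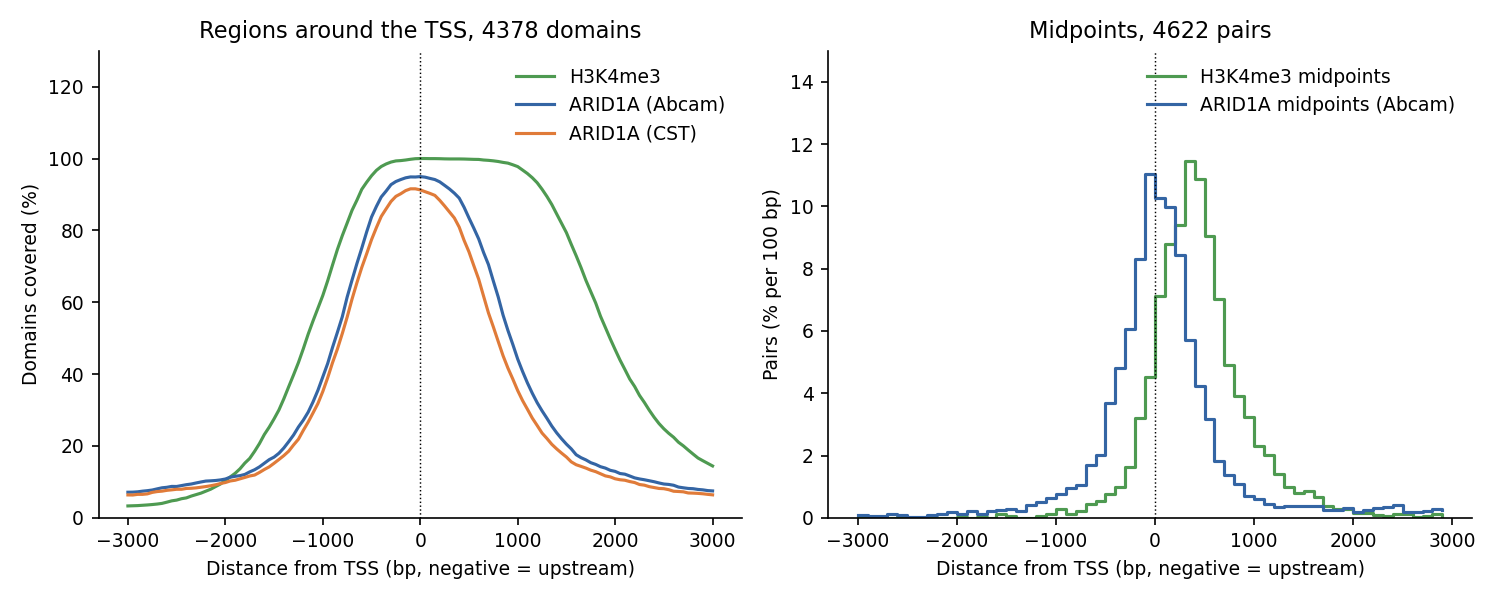
Left, share of the 4378 single-gene domains with shared ARID1A that were covered by H3K4me3 (green), Abcam (blue) or CST (orange) regions at each distance from the TSS. Right, ARID1A (blue) and H3K4me3 (green) midpoints of the 4622 pairs in 100 bp steps. Coverage by ARID1A is near symmetric about the TSS, whereas H3K4me3 covers 61.9% of domains 1000 bp upstream and 97.8% of them 1000 bp downstream.

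The edges gave the same picture as the midpoints. The median ARID1A region ran from 846 bp upstream to 952 bp downstream of the TSS, and the median H3K4me3 domain from 1176 bp upstream to 1987 bp downstream. Shared Abcam regions covered the TSS of 94.6% of domains, 39.1% at 1000 bp upstream and 43.7% at 1000 bp downstream. CST regions covered 91.3%, 35.2% and 35.4%. H3K4me3 therefore ran past the ARID1A edge by a median of 260 bp on the upstream side and 893 bp on the downstream side, and the median difference between the sides was 624.5 bp (590 to 658).

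By annotation, 44.7% of ARID1A midpoints lay upstream of the canonical TSS, 22.9% in the first exon and 29.0% in the first intron, with 0.909% in a later exon and 1.80% in a later intron. Of the 4378 H3K4me3 midpoints, 13.2% lay upstream of the TSS, 21.1% in the first exon and 60.2% in the first intron. The shares of upstream sequence and of the first intron had intervals that did not overlap between ARID1A and H3K4me3, while those of the first exon did (21.7 to 24.2 and 19.9 to 22.3). Genes on the plus strand (2392 pairs) and the minus strand (2230 pairs) gave the same median ARID1A position, 51 bp downstream of the TSS, with midpoint differences of -306 and -318 bp.

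Among shared regions, the antibodies differed from each other by less than ARID1A differed from H3K4me3. Shared regions were chosen for overlap between the antibodies. Regions of both antibodies were also narrower than those of H3K4me3, with list medians of 1486 bp (Abcam), 1442 bp (CST) and 3046 bp. Both limit how far apart the antibody midpoints can lie, and their part in this order was not tested. Among the 4442 pairs whose Abcam region overlapped exactly 1 CST region, the CST midpoint lay a median of 20.5 bp upstream of the Abcam midpoint, and the median absolute distance was 181 bp. Both antibodies were upstream of the H3K4me3 midpoint in 70.6% of these pairs and both downstream in 14.7%. In the remaining 14.7% they fell on different sides or at the midpoint itself. The Abcam midpoint was closer to the CST midpoint than to the H3K4me3 midpoint in 70.9% (69.6 to 72.2).

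Most of the shared ARID1A regions that overlapped H3K4me3 were nested in it. Over all 6404 pairs, 4558 ARID1A regions lay wholly inside the H3K4me3 region (71.2%, 70.0 to 72.3), 1711 crossed 1 edge (26.7%) and 135 held the whole H3K4me3 region (2.11%). In single-gene domains 70.1% lay inside. Those that crossed an edge did so mostly on the upstream side, with 1053 past the upstream edge (22.8%, 21.6 to 24.0) and 250 past the downstream edge (5.41%, 4.77 to 6.10). ARID1A regions were narrower than the domains, with medians of 1838 and 3233 bp in these pairs. Domains with genes on both strands held ARID1A inside in 88.0% of pairs, and H3K4me3 regions without a protein-coding TSS in 55.0%.

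**Figure D2:**
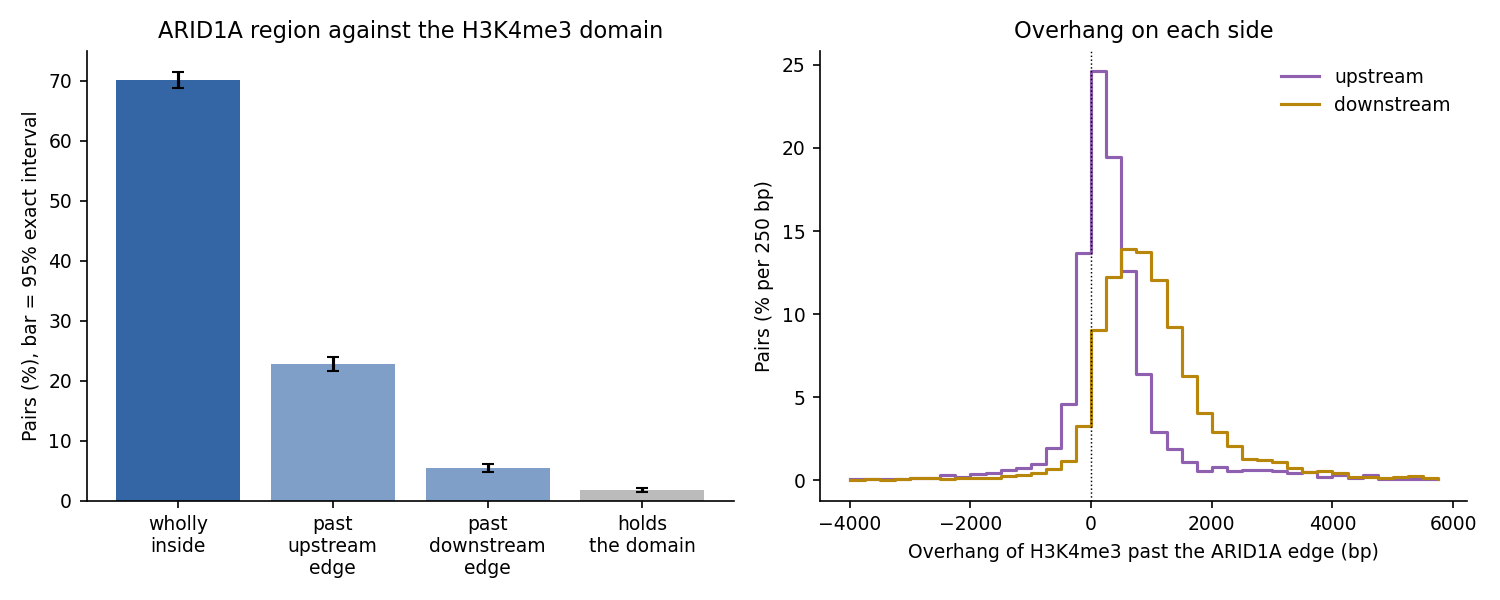
Left, share of the 4622 pairs in each arrangement, with 95% exact intervals. Right, how far H3K4me3 ran past the ARID1A edge on the upstream and downstream sides, in 250 bp steps, where a value below 0 means that ARID1A ran past H3K4me3. The upstream overhang is centred on 260 bp and the downstream overhang on 893 bp.

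When each domain was divided into 5 equal parts from its upstream edge, 6.71% of ARID1A midpoints fell in part 1, 43.2% in part 2, 38.7% in part 3, 6.45% in part 4 and 2.53% in part 5. The TSS itself fell in part 2 in 54.7% of pairs and in part 3 in 34.8%. A nested region cannot reach the edges with its midpoint, so its slack within the domain was also divided into 5 parts. From upstream to downstream these held 34.9%, 30.5%, 19.2%, 8.86% and 6.48% of the 3239 nested regions. Nested ARID1A was thus shifted toward the upstream edge also when its own width was allowed for.

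Both features moved together across promoters. Over the 4146 domains with exactly 1 shared ARID1A region, Spearman's rho was 0.55 between the upstream edges, 0.35 between the downstream edges and 0.44 between the midpoints, each measured from the same TSS and between regions that overlap by construction. Where the H3K4me3 midpoint lay upstream of the TSS (548 domains), the median ARID1A midpoint lay 257 bp upstream. Where the H3K4me3 midpoint lay over 500 bp downstream (1533 domains), the median ARID1A midpoint lay 221 bp downstream of the TSS. In both classes ARID1A remained on the upstream side of the mark, with 56.6% (52.3 to 60.8) and 85.7% (83.9 to 87.4) of midpoints upstream of that of H3K4me3. The classes were cut on the H3K4me3 midpoint, which enters the difference itself, so these shares are a description.

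The study reported ARID1A at the promoters of PIK3R3 and PIK3IP1, which belong to the class I PI3K pathway. Of the 10 genes of class I PI3K and PIK3IP1, 6 had the canonical TSS in H3K4me3, and all 6 were single-gene domains with shared ARID1A (60.6% of all single-gene domains). In 5 of the 6 the ARID1A region lay inside the domain (70.1% of all pairs) and in 5 its midpoint lay upstream of the H3K4me3 midpoint (77% of all pairs). It was nearer the TSS than the H3K4me3 midpoint in 3 (60.9% of all pairs). The canonical TSSs of PIK3CD, PIK3CG, PIK3R5 and PIK3R6 lay outside H3K4me3.

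At PIK3CA, which encodes the p110 alpha catalytic subunit, the Abcam region chr3:179147110-179148346 ended just short of the canonical TSS at 179148357, inside the H3K4me3 domain chr3:179146822-179150198. Its midpoint was 629 bp upstream of the TSS and 782 bp upstream of the H3K4me3 midpoint, while the CST region chr3:179147415-179149267 had its midpoint 16 bp upstream of the TSS. The antibodies thus placed ARID1A on the same side of the mark but at different distances. At PIK3CB, encoding p110 beta, the Abcam region chr3:138833371-138835737 nearly filled the domain chr3:138833249-138835761, with overhangs of 24 bp upstream and 122 bp downstream. The CST region chr3:138834116-138835507 was narrower, with overhangs of 254 and 867 bp and its midpoint 116 bp downstream of the TSS.

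At the regulatory subunit genes H3K4me3 ran further past ARID1A downstream than upstream. At PIK3R3 the Abcam midpoint lay 129 bp and the CST midpoint 416 bp upstream of the TSS, and H3K4me3 ran on for 768 bp upstream of the Abcam region and 1769 bp downstream. At PIK3R1 (Abcam chr5:68214292-68217080, H3K4me3 chr5:68214159-68218306) the overhangs were 133 bp upstream and 1226 bp downstream. The Abcam midpoint lay 70 bp upstream of the PIK3R1 TSS and the CST midpoint 190 bp downstream. At PIK3R2 (Abcam chr19:18152067-18153255, H3K4me3 chr19:18151585-18155066) they were 482 and 1811 bp, with the Abcam midpoint 502 bp upstream and the CST midpoint 127 bp downstream of the TSS. At PIK3R1 and PIK3R2 the antibodies thus placed the midpoint on different sides of the TSS. With CST regions the upstream and downstream overhangs were nearly even at PIK3R2, at 478 and 550 bp. They were 605 and 2180 bp at PIK3R3, and 837 and 1410 bp at PIK3R1.

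PIK3IP1, which encodes an inhibitor of PI3K, had the opposite arrangement. Its only shared ARID1A region in the domain had its midpoint in intron 3, 1687 bp downstream of the canonical TSS and 830 bp downstream of the H3K4me3 midpoint, and it ran 77 bp past the downstream edge. H3K4me3 extended 1583 bp beyond it on the upstream side. The CST region that overlapped it, chr22:31290532-31291176, had its midpoint 1634 bp downstream of the TSS and lay inside the domain, so the edge was crossed with the Abcam antibody only. Among single-gene pairs, this is one of the 250 that passed the downstream edge.

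PRC2 genes, which encode the H3K27 methyltransferase complex that contains EZH2, were mostly of the common kind. Of 12 genes, 11 had the canonical TSS in H3K4me3 and 7 of these had shared ARID1A. In single-gene domains 6 of 10 had shared ARID1A, in 7 pairs, beside 60.6% of all single-gene domains. In all 7 the ARID1A region was inside the domain, beside 70.1% of all pairs. The midpoint was upstream of the H3K4me3 midpoint in 6 of the 7, beside 77% of all pairs, with a median difference of -391 bp beside -312 bp over all single-gene pairs. SUZ12, AEBP2, MTF2 and PHF19 were single-gene domains without shared ARID1A.

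At EZH2, the catalytic subunit and the target of the inhibitor used in the study, the Abcam region chr7:148883916-148885872 lay inside the domain chr7:148881950-148885985 with overhangs of 113 bp upstream and 1966 bp downstream. Its midpoint was 603 bp upstream of the TSS and the CST midpoint 192 bp upstream. At EED, the subunit that reads H3K27me3, the Abcam midpoint lay in exon 1, 425 bp downstream of the TSS, and the CST midpoint 362 bp downstream. EZH1, the paralogue of EZH2, had a narrow Abcam region of 630 bp (chr17:42744488-42745117) with its midpoint 237 bp downstream of the TSS. At RBBP7, a histone chaperone, the Abcam midpoint lay 47 bp upstream, and at PHF1, an accessory subunit, 448 bp upstream. At RBBP4, whose domain holds genes on both strands, the midpoints of ARID1A and H3K4me3 were 44 bp apart.

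JARID2, which helps to recruit PRC2, had 2 shared ARID1A regions in 1 domain of 6285 bp (chr6:15243990-15250274). The first, chr6:15244606-15246288, had its midpoint 622 bp upstream of the TSS. The second, chr6:15247445-15249448, had its midpoint 2378 bp downstream, in intron 1. CST regions lay over both, with midpoints 466 bp upstream and 2872 bp downstream. The H3K4me3 midpoint lay between them, 1063 bp downstream.

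**Figure D3:**
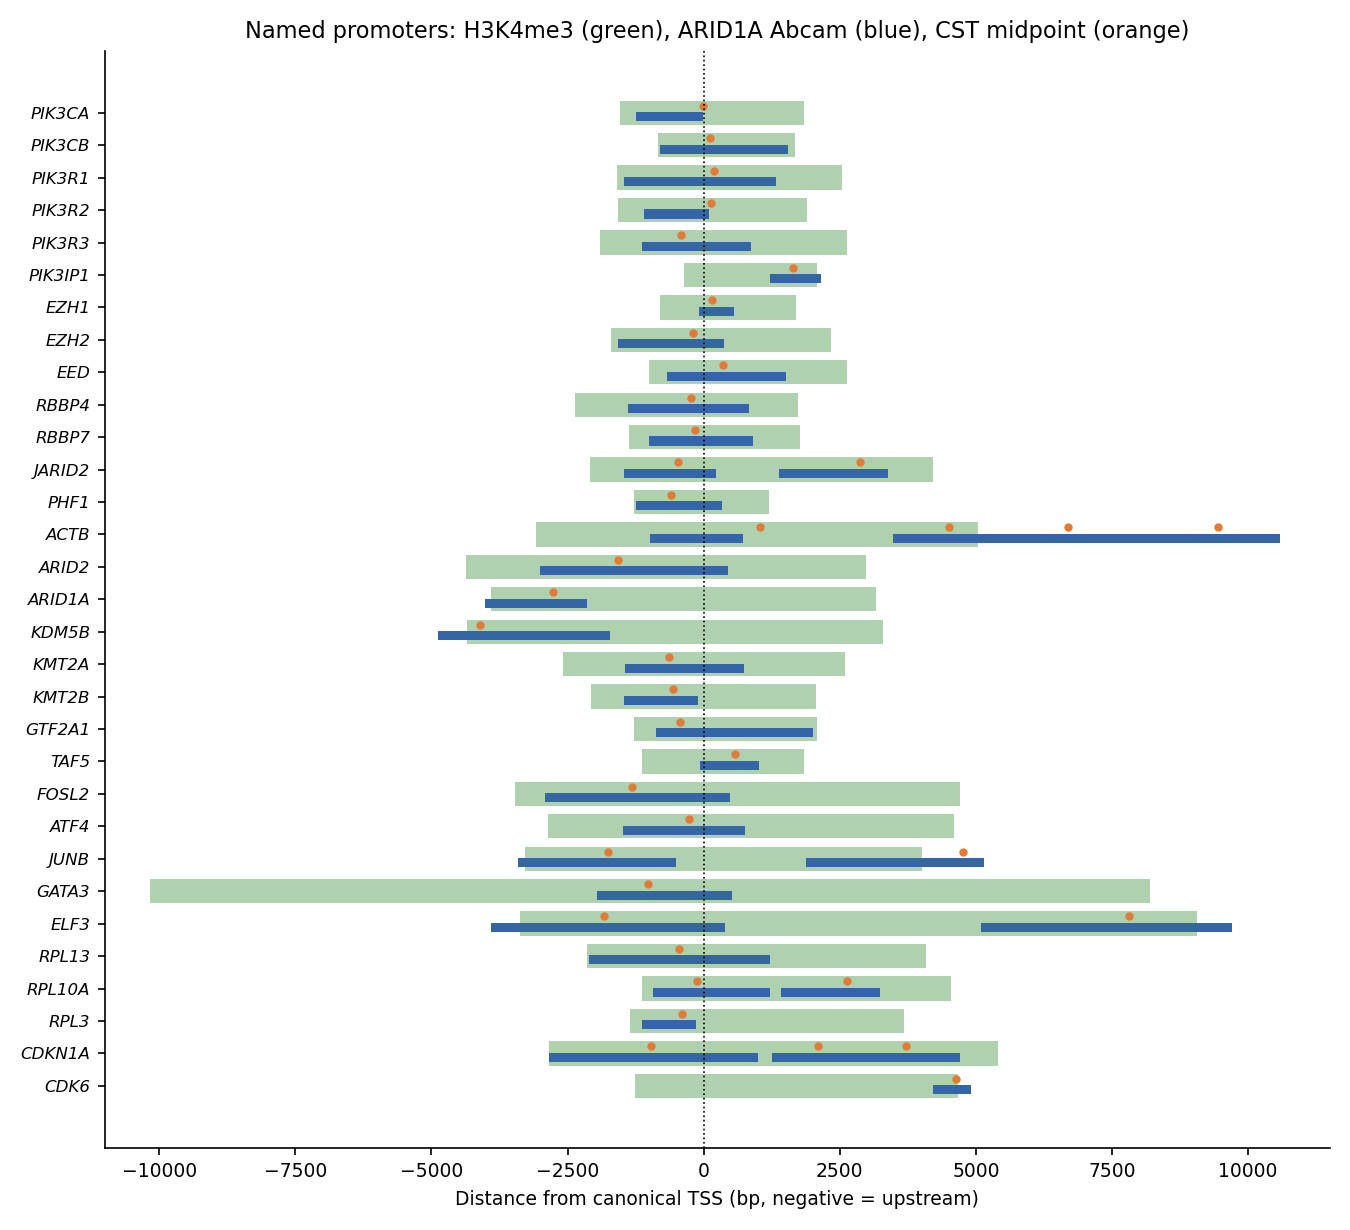
H3K4me3 domains (green bars), shared ARID1A regions of Abcam (blue bars) and midpoints of the overlapping CST regions (orange points) at the named PI3K, PRC2 and other listed genes, in bp from the canonical TSS with upstream to the left. At most genes the blue bar lies on or to the left of the TSS while the green bar extends to the right, and PIK3IP1 and CDK6 have ARID1A near the downstream edge.

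Other gene lists differed in the share of domains that had ARID1A. Shared ARID1A was found in 16 of 18 single-gene domains of luminal urothelial genes (88.9%), 18 of 21 of AP-1 and TEAD genes (85.7%), 17 of 23 of cell cycle genes (73.9%), 16 of 22 of SWI/SNF genes (72.7%) and 10 of 16 of H3K4 methylation and demethylation genes (62.5%). It was found in 7 of 19 of general transcription machinery genes (36.8%) and 18 of 52 of cytosolic ribosomal protein genes (34.6%), beside 60.6% of all single-gene domains. The ARID1A midpoint was upstream of the H3K4me3 midpoint in 15 of 17 pairs for SWI/SNF, 16 of 18 for cell cycle, 17 of 20 for ribosomal proteins, 8 of 10 for H3K4 methylation, 17 of 22 for AP-1 and TEAD, 15 of 24 for luminal genes and 3 of 7 for the transcription machinery, beside 77% overall. The lists were not chosen independently of these data, and the counts are descriptions.

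Luminal urothelial genes belong to the differentiation program of the bladder lining. Of the 26 listed, 21 had the canonical TSS in H3K4me3, and those of KRT20, UPK1A, UPK2, UPK3A and TP63 lay outside it. Single-gene domains of this list with shared ARID1A were broad, and ARID1A often crossed their upstream edge. Over their 24 pairs the median domain width was 6648 bp, beside 3233 bp over all pairs, and a domain with several ARID1A regions counts more than once. Of these pairs, 12 crossed the upstream edge, beside 22.8% overall. GATA3, a transcription factor of the luminal program, had the widest domain among those named, 18364 bp, with a single ARID1A region (chr10:8052727-8055203) whose midpoint was 723 bp upstream of the TSS. H3K4me3 extended past it by 8200 bp upstream and 7687 bp downstream. ELF3, an epithelial ETS factor, had a domain of 12433 bp with 1 ARID1A region across each edge. The upstream region (chr1:202006673-202010971) ran 545 bp past the domain and the downstream region (chr1:202015680-202020283) 633 bp past it.

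Among AP-1 genes, JUNB also had 1 Abcam region at each edge of its domain, 125 bp past the upstream edge and 1147 bp past the downstream edge. The CST regions there crossed neither edge, as one began at 12788431, inside the domain start at 12788203, and the other at 12795711, beyond the domain end at 12795497. FOSL2, another AP-1 member, and ATF4, a stress-response factor, each had a single nested region, with midpoints 1216 and 361 bp upstream of the TSS, and downstream overhangs of 4229 and 3841 bp. CDKN1A, which encodes the cell cycle inhibitor p21, had 2 Abcam regions inside a domain of 8263 bp, with the first CST region 61 bp past its upstream edge, and the Abcam midpoints lay at 927 bp upstream and 2983 bp downstream of the TSS. At CDK6, a cell cycle kinase, the only shared region lay in intron 2, 4556 bp downstream, and crossed the downstream edge by 222 bp.

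Genes of the SWI/SNF complex and of H3K4 methylation included promoters where ARID1A lay far upstream. At the ARID1A gene itself, the shared region chr1:26692007-26693870 crossed the upstream edge of the domain chr1:26692103-26699187 by 96 bp, with its midpoint 3076 bp upstream of the canonical TSS. The CST midpoint lay 2770 bp upstream. At KDM5B, an H3K4me3 demethylase, the region crossed the upstream edge by 527 bp and had its midpoint 3304 bp upstream of the TSS. At ARID2, a subunit of a different form of SWI/SNF, the midpoint was 1280 bp upstream. KMT2A and KMT2B, which encode H3K4 methyltransferases, had nested regions with midpoints 349 and 776 bp upstream. ACTB, which encodes beta-actin, had 1 nested region with its Abcam midpoint 134 bp upstream and its CST midpoint 1029 bp downstream of the TSS, and a second of 7119 bp that ran 5550 bp past the downstream edge.

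Of ribosomal protein genes, RPL13 had a nested region with its Abcam midpoint 447 bp and CST midpoint 449 bp upstream, and RPL3 had one with its Abcam midpoint 639 bp and CST midpoint 392 bp upstream. The RPL3 region was nested with the Abcam antibody only, as the CST region ran 595 bp past the upstream edge. RPL10A had 2 regions, with Abcam midpoints 144 bp and 2337 bp downstream of the TSS. Their CST midpoints lay 117 bp upstream and 2637 bp downstream. TAF5, a TFIID subunit, and GTF2A1, a TFIIA subunit, had Abcam midpoints 473 and 565 bp downstream of the TSS, and 117 and 162 bp downstream of the H3K4me3 midpoint. For GTF2A1 the CST midpoint lay 440 bp upstream of the TSS, so that the antibodies fell on different sides of it.

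The extremes show how far a nested ARID1A region could lie from the TSS. Of 2974 single-gene domains with exactly 1 shared region wholly inside, the 5 with the midpoint farthest upstream were CACNB3 (2980 bp), TRIM7 (2581 bp), LIN54 (2221 bp), CTDSP1 (2165 bp) and SOCS2 (2016 bp). The 5 farthest downstream were UNC5B (4762 bp), SBNO2 (4673 bp), DVL1 (4517 bp), ID3 (3628 bp) and MST1R (3014 bp). At UNC5B, a netrin receptor, the region chr10:71216667-71217997 lay in intron 1, and at ID3, an inhibitor of helix-loop-helix factors, it lay beyond the end of the transcript. CST midpoints at these 10 genes lay on the same side of the TSS as the Abcam midpoints. The closest agreement between Abcam and H3K4me3 midpoints was 0 bp at COQ2, EID2 and TBCE and 1 bp at ADAR and CDV3. At COQ2 H3K4me3 extended 312 bp past the Abcam region on each side. As these genes were picked for the smallest distance between Abcam and H3K4me3 midpoints, CST midpoints lay farther from those of H3K4me3 largely by construction. Downstream of the TSS they were at 548 beside 227 bp (COQ2), 337 beside 278 bp (EID2), 45 beside 180 bp (TBCE) and 183 beside 437 bp (CDV3). At ADAR they were at -12 beside -138 bp. The CST region crossed an edge at COQ2, TBCE and CDV3, by 77, 89 and 1 bp.

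The reverse nesting, with ARID1A around the mark, was found in 80 single-gene pairs. The 5 widest such ARID1A regions were at S100A10 (14350 bp), ID1 (12229 bp), ANXA2 (10903 bp), MEAK7 (8500 bp) and TLE3 (8240 bp). At S100A10, the partner of annexin A2, the Abcam region chr1:151987802-152002151 ran 7348 bp past the upstream edge and 218 bp past the downstream edge. It overlapped 4 separate CST regions. At ANXA2, which encodes annexin A2, the region chr15:60390211-60401113 ran 2299 bp past the upstream and 2879 bp past the downstream edge, over 3 CST regions. At ID1, a relative of ID3, the single CST region had its midpoint 1946 bp downstream of the TSS beside 2155 bp for Abcam.

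Wide domains differed from narrow ones in several ways. In 4 width classes with limits of 2458, 2984 and 3696 bp, shared ARID1A was found in 45.9% (43.6 to 48.2), 56.4%, 63.1% and 77.0% of single-gene domains from the narrowest to the widest, and no intervals of neighbouring classes overlapped. A wider region has more room for an overlap, and its part in this order was not tested. The classes were cut on H3K4me3 width, and the edges and midpoint of the same regions enter the values that follow. These values are therefore a description. ARID1A crossed the upstream edge, with or without the downstream one, in 36.7%, 27.2%, 18.8% and 20.5% of pairs. The midpoint difference grew from -228.5 bp (-253 to -207) in the narrowest class to -501 bp (-539 to -450) in the widest. Over the same classes the median ARID1A midpoint was at most 82.5 bp from the TSS and the median H3K4me3 midpoint moved from 319 to 669.5 bp downstream. Single ARID1A midpoints were more spread out in wide domains, with a median absolute distance from the TSS of 182 bp in the narrowest class and 478 bp in the widest. ARID1A was the nearer to the TSS in 69.9% (66.6 to 73.0) and 52.2% (49.7 to 54.7) of pairs, and upstream of the H3K4me3 midpoint in 82.0% (79.3 to 84.6) and 71.2% (68.9 to 73.4). With CST regions the midpoint differences were -232 and -585.5 bp in the narrowest and widest class.

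**Figure D4:**
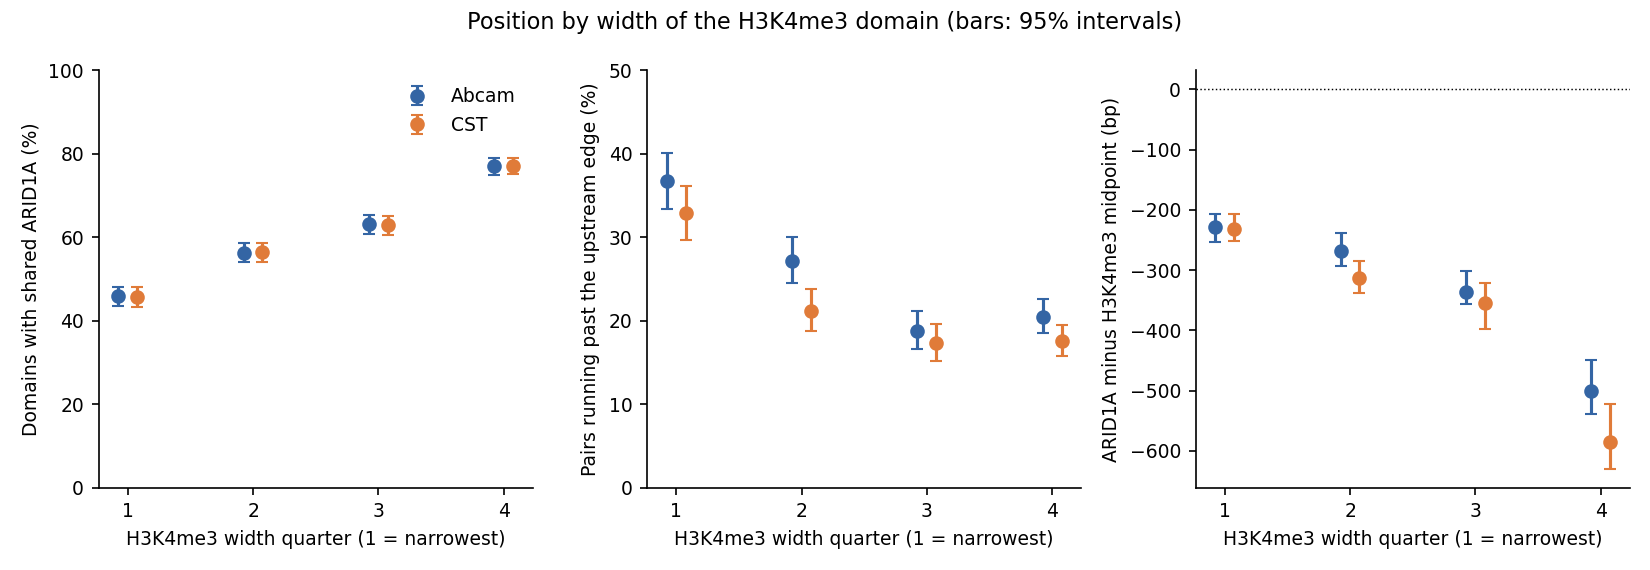
Single-gene domains in 4 classes of H3K4me3 width, for Abcam (blue) and CST (orange) regions, with 95% intervals. From left to right, the share of domains with shared ARID1A, the share of pairs in which ARID1A ran past the upstream edge, and the median ARID1A midpoint minus the H3K4me3 midpoint, which falls from -228.5 to -501 bp with Abcam. The classes are cut on the H3K4me3 regions that also enter each value.

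Domains with several ARID1A regions were wide. Of the single-gene domains, 4146 held 1 shared region, 220 held 2 and 12 held 3, with median H3K4me3 widths of 3117, 5083.5 and 7509.5 bp. In the 220 domains with 2, the regions lay on either side of the TSS in 138 (62.7%, 56.0 to 69.1), both downstream in 68 and both upstream in 14, with a median gap of 615.5 bp between them. In these multiple domains 51.1% (46.5 to 55.6) of ARID1A midpoints lay upstream of the H3K4me3 midpoint, beside 80.0% (78.7 to 81.2) where there was only 1 region. Regions of a list do not overlap, so several in 1 domain tend to fall on both sides of its midpoint. The even share is thus partly set by construction, and its interval counts regions of the same domain as independent. TNRC18, LAMA5, ZBTB7A and PTCH1 were among the domains with 3. At LAMA5, a laminin subunit, midpoints lay 2627 bp upstream and 1362 and 5852 bp downstream of the TSS. At ZBTB7A, a zinc finger repressor, all 3 lay downstream, at 5248, 6867 and 8388 bp. The Abcam region at 8388 bp ran 1451 bp past the downstream edge, and its CST region lay outside the domain. At PTCH1, the Hedgehog receptor, midpoints lay 1604 bp upstream and 586 and 2103 bp downstream, and 1 CST region spanned part of all 3 regions.

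At head-to-head promoters, where 2 genes start in opposite directions, ARID1A and H3K4me3 midpoints lay at similar distances from the centre between the TSSs. There were 857 such domains, of which 588 had shared ARID1A in 613 pairs. ARID1A lay inside H3K4me3 in 92.7% (90.3 to 94.6) and covered both TSSs in 86.1% (83.1 to 88.8). Its midpoint lay between the 2 TSSs in 46.8% (42.8 to 50.9). The median distance from the centre between the TSSs was 209 bp for the ARID1A midpoint and 212 bp for the H3K4me3 midpoint, and ARID1A was the nearer in 50.7% (46.7 to 54.8), an interval that holds 50%. H3K4me3 ran past ARID1A by a median of 853 bp on the left and 910 bp on the right. Left and right are those of the genome and follow neither gene. Similar medians therefore cannot show whether ARID1A was centred in single domains, and the relation to the direction of transcription was not tested.

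The sequence under the midpoints differed as well. In 3379 single-gene pairs whose midpoints were at least 200 bp apart, the ratio of observed to expected CpG in 200 bp was higher at the ARID1A midpoint in 56.8% (55.1 to 58.4), with medians of 0.784 and 0.710 and a median difference of 0.055 (0.041 to 0.066). The sign followed the side. Where the ARID1A midpoint was the upstream one (2802 pairs) the median difference was 0.090 (0.079 to 0.103), and where it was the downstream one (577 pairs) it was -0.124 (-0.142 to -0.097). Around the TSS the mean ratio, in 100 bp windows over all 4622 pairs, was 0.927 at the TSS itself. Around the ARID1A midpoint it was highest at the midpoint (0.748), and around the H3K4me3 midpoint it was highest 300 bp upstream of it (0.779, beside 0.705 at the midpoint). The ARID1A midpoint was also compared with the position mirrored about the TSS, for 3643 midpoints at least 100 bp from it. The ratio at ARID1A was higher by 0.088 (0.072 to 0.105) where ARID1A was downstream, and by 0.012 (-0.008 to 0.027) where it was upstream, an interval that holds 0. The median difference in percent G and C was 9 (8.5 to 9.5) and -3.5 (-4 to -2.5). Around the TSS of these pairs the mean CpG ratio was itself uneven, at 0.782 300 bp downstream and 0.700 300 bp upstream. The part of this unevenness in the mirrored differences was not tested.

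Of 10 words searched on both strands in these 200 bp windows, 7 were present more often at the ARID1A midpoint than at the H3K4me3 midpoint. GGGCGG, the GC box bound by SP factors, was found in 49.5% of ARID1A windows and 40.6% of H3K4me3 windows. Of the windows that differed, 59.9% had it at ARID1A (57.4 to 62.4, against 50%). CCAAT, bound by NF-Y, was found in 22.6% and 15.7%, and 60.8% of differing pairs had it at ARID1A (57.8 to 63.7). TGACGTCA, the cAMP response element, was rare at 1.12% and 0.178% and had the most uneven split, 38 pairs against 6 (86.4%, 72.6 to 94.8). The others were CACGTG, the E-box (63.4%, 57.4 to 69.2), GCGCATGC, the NRF1 word (68.7%, 57.6 to 78.4), AAGATGGC, the YY1 word (65.3%, 55.2 to 74.5), and CCGGAA, the ETS word (55.5%, 51.7 to 59.2). For TGANTCA, the AP-1 word, GGAATG, the TEAD word, and TATAAA, the TATA box, the intervals held 50%, at 55.2% (48.5 to 61.8), 48.5% and 54.3% (47.7 to 60.8). For 2 words this depended on the window, since the AP-1 word was more frequent at ARID1A in 400 bp windows (60.0%, 55.2 to 64.7) and the interval of the YY1 word held 50% in 100 bp windows (58.3%, 43.2 to 72.4).

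In 200 bp centred on the TSS of all 7226 single-gene domains, GGGCGG was found in 70.8%, CCAAT in 25.4%, CCGGAA in 25.1%, CACGTG in 6.45%, AAGATGGC in 5.95%, GGAATG in 4.69%, GCGCATGC in 4.29%, TGACGTCA in 2.85%, TATAAA in 2.38% and TGANTCA in 1.79%. The 7 words with a higher share at ARID1A were each more frequent at the TSS than at either midpoint, and the AP-1, TEAD and TATA words less frequent. The ARID1A midpoint was the nearer to the TSS in 60.9% of all 4622 pairs, and the part of that distance in the word counts was not tested. A match describes the letters only.

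**Figure D5:**
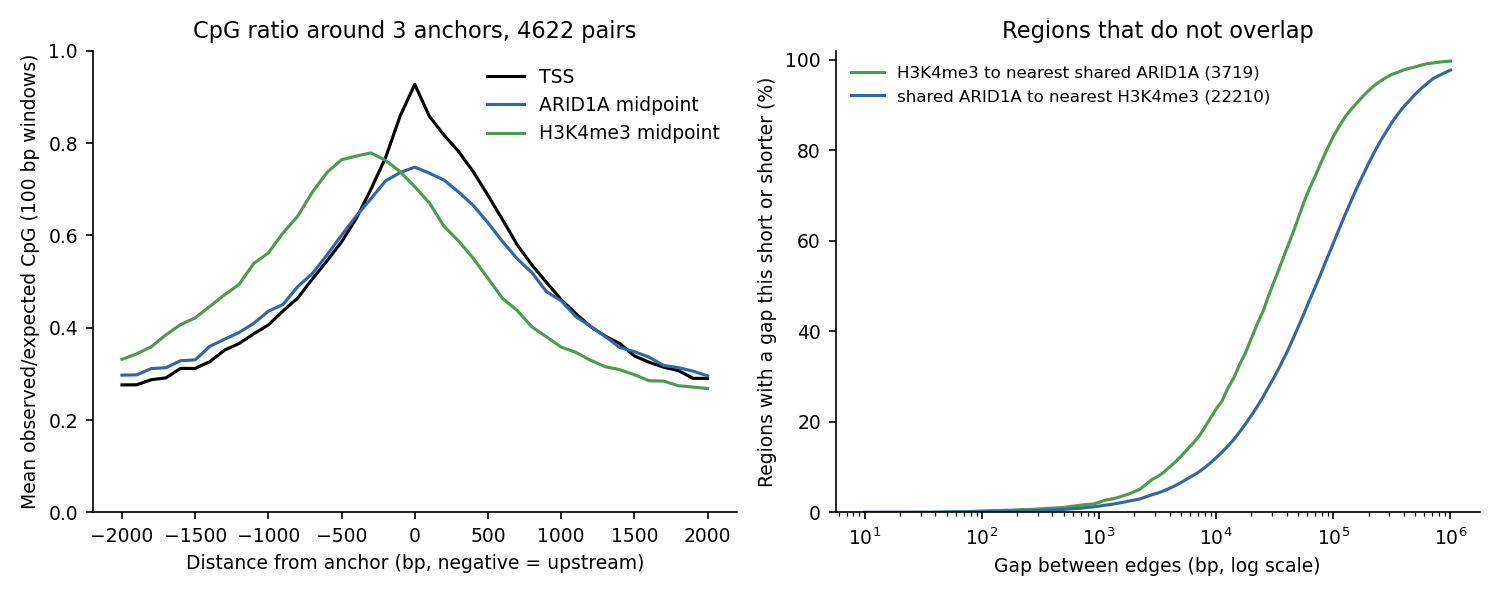
Left, mean observed over expected CpG in 100 bp windows around the TSS (black), the ARID1A midpoint (blue) and the H3K4me3 midpoint (green) of the 4622 pairs, with the green curve highest 300 bp upstream of its anchor. Right, cumulative share of regions by the gap to the nearest region of the other kind on a log scale, for 3719 H3K4me3 regions without shared ARID1A (green) and 22210 shared ARID1A regions without H3K4me3 (blue).

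Regions that did not overlap were mostly far apart. The 3719 H3K4me3 regions without shared ARID1A lay a median of 30271 bp from the nearest one (28532 to 31835), with 12.4% within 5000 bp (11.4 to 13.5) and 2.23% within 1000 bp. The 22210 shared ARID1A regions without H3K4me3 lay a median of 70640 bp (68768 to 72328) from an H3K4me3 region, with 6.59% within 5000 bp. These ARID1A regions were narrower than those that overlapped H3K4me3, with medians of 1573 and 1857 bp. Of the H3K4me3 regions without shared ARID1A, 34.0% overlapped an Abcam region and 13.8% a CST region, and 52.8% overlapped neither list.

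Near misses lay more often upstream than downstream. For the 354 single-gene domains without shared ARID1A that had one within 5000 bp, it lay upstream in 214 (60.5%, 55.1 to 65.6). For the 1139 shared ARID1A regions without H3K4me3 whose nearest domain within 5000 bp was a single-gene domain, 626 lay upstream of it (55.0%, 52.0 to 57.9), and 74.4% of those domains held another shared ARID1A region. Within 1000 bp the shares were 55.4% of 65 (42.5 to 67.7) and 55.9% of 238 (49.3 to 62.3), and both intervals held 50%.

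Among the 2848 single-gene domains without shared ARID1A, the smallest gaps were seen at ACOXL, DAPK1, HCAR1, SCPEP1 and HEG1. At ACOXL the shared region chr2:110734445-110736063 began after a gap of 36 bp from the domain chr2:110731515-110734408. At DAPK1, a death-associated kinase, the gap was 46 bp, at HCAR1, a lactate receptor, 48 bp, and at SCPEP1 53 bp, each on the downstream side. At HEG1 the gap was 75 bp on the upstream side. A CST region reached into the domains of DAPK1, SCPEP1 and HEG1. At DAPK1 it began at 87500366, before the domain ended at 87500481, and at SCPEP1 at 56979981, before the end at 56979996. At HCAR1 and ACOXL the CST region, like the Abcam region, lay outside the domain.

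H3K4me3 was centred downstream of the TSS also where shared ARID1A was missing. In the 2848 single-gene domains without shared ARID1A the median H3K4me3 midpoint lay 382 bp downstream of the TSS (369 to 393), beside 399.5 bp (385 to 414) in the 4378 with it, and the intervals overlapped. The domains without it were narrower, with medians of 2739.5 and 3169.5 bp. Their median edges lay 968 bp upstream and 1711 bp downstream of the TSS. The mark extended further downstream than upstream in both sets.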

How the data were processed

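CUT&RUN was performed in RT112 cells in 12 samples, 3 replicates for each of 4 antibodies. Per the labels and methods, the authors trimmed reads (cutadapt), aligned them to GRCh38 and E. coli (bwa-mem2), removed duplicates (Picard) and reads without a unique position (samtools), scaled by spike-in, called peaks with SEACR and merged replicates (bedtools). Further tools in the submitters' processing notes are bcl2fastq and deepTools, without versions. The methods state the relaxed SEACR mode, with only a fixed top share of peaks kept, while the list names say stringent. These choices set which regions are missing and where the edges lie, and loss of reads without a unique position can remove repeats. The deposited lists hold chromosome, start and end, a position rather than a count, signal or score. IgG was not analysed here.

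Regions on chromosomes 1 to 22 and X were used, and 152 Abcam, 159 CST and 14 H3K4me3 regions elsewhere were left out. TSSs were those of protein-coding transcripts in GENCODE 44, and the canonical TSS is that of the Ensembl canonical transcript. Positions are 1-based in hg38. Midpoints were rounded down. Shares carry 95% exact (Clopper-Pearson) intervals, read against 50%, and medians 95% order-statistic intervals, read against 0. No p-value was computed, as no replicates can be compared. The geometry and word search were tested on simulated data. Analyses used Python 3.11.15, pandas 2.3.3, SciPy 1.17.1 and pysam 0.24.0.

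The members, lists and rules were chosen with earlier results of these data known, and the splits by width and by the side of H3K4me3 were chosen after the positions were seen. Named genes were all PI3K and PRC2 genes with ARID1A in H3K4me3, up to 3 of each other list with the widest H3K4me3, and the 5 extremes of each arrangement. Sequences were taken at the Abcam midpoint for up to 6 of these where it lay upstream of all TSSs. Some genes that the rule takes are not reported here. Gene roles are background knowledge. Alternatives were other definitions of ARID1A regions, overlap, TSS, gap and window.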

Additional observations from a re-analysis of the deposited data

How the results depend on the processing

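No paired analysis was possible because the replicates are merged within each list, and no replicate could be left out for the same reason. In the 8 alternatives that could move them (the 2 other choices of TSS leave both values as they were), the ARID1A midpoint stayed upstream of that of H3K4me3 (74.1 to 80.0% of pairs) and the downstream overhang stayed the longer (by 618 to 775 bp), and the CpG ratio difference kept its sign in all 9 (0.019 to 0.062). With windows of 100 and 400 bp, 6 and 8 of the 10 words were more frequent at ARID1A, the YY1 word being lost at 100 bp and the AP-1 word added at 400 bp. The results relative to the TSS depended on the TSS. With the TSS nearest the H3K4me3 midpoint, a choice that shortens the H3K4me3 distance by construction, the median ARID1A midpoint was -57 bp and ARID1A was the nearer in 46.9%, and with the most upstream TSS the values were 154 bp and 66.2%. Among the wider regions of each list, from its median width upward, the ARID1A midpoint was 30 bp from the TSS (-8 to 67), an interval that holds 0.

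The nested share was 74.0% with CST regions, 82.9% with the bases common to both antibodies, 69.7% among wide regions, 73.1% where at least as much of the ARID1A region lay inside H3K4me3 as outside and 72.9% in domains with exactly 1 ARID1A region. The share of H3K4me3 regions with a near ARID1A region was 7.69% among wide regions, 2.23% within 1 kb and 22.9% within 10 kb. Apart from what the alternatives' own construction sets, the cause was not tested. Without signal or depth, a midpoint is that of a called region and need not be its summit.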

Other observations

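CpG content around the start site and the spread of annotated start sites were examined as further splits of the single-gene domains. From the lowest to the highest of 4 classes of CpG ratio in 1 kb around the TSS (limits 0.730, 0.813 and 0.888), ARID1A regions lay wholly inside H3K4me3 in 61.6% (58.7 to 64.5), 69.5%, 73.1% and 75.6% (73.1 to 78.1) of pairs, and crossed the upstream edge in 31.5% (28.8 to 34.4), 25.7%, 21.4% and 19.6%. With CST regions 67.0% (64.2 to 69.7) of pairs in the lowest class and 76.1% (73.6 to 78.5) in the highest were nested. The share of domains with shared ARID1A was 57.7% (55.4 to 60.0) in the lowest class and 61.9% (59.6 to 64.1) in the highest. The share of ARID1A midpoints upstream of the H3K4me3 midpoint lay between 75.9% and 78.4% in the 4 classes.

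Genes whose annotated TSSs spanned over 500 bp within the domain had shared ARID1A in 67.1% of 1906 domains (64.9 to 69.2), beside 56.8% of 1585 domains with all TSSs at 1 position (54.4 to 59.3). Wider domains have more room for spread TSSs, and they had shared ARID1A more often. The part of domain width in this difference was not tested. In domains with all TSSs at 1 position, where the choice of TSS cannot matter, the median ARID1A midpoint lay 96 bp downstream of the TSS (67 to 122) and that of H3K4me3 456 bp downstream, and ARID1A was the nearer in 61.2% of pairs (58.0 to 64.3). With CST regions the ARID1A midpoint lay 63 bp downstream (25 to 87) and was the nearer in 59.1% (55.9 to 62.2).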
